A study of Caenorhabditis elegans with 2 samples.

Results

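Cuticle collagen genes of Caenorhabditis elegans were taken as the protein-coding genes named col- plus a number and 17 genes named for mutant body shapes (dpy-2, dpy-3, dpy-4, dpy-5, dpy-7, dpy-8, dpy-9, dpy-10, dpy-13, dpy-17, sqt-1, sqt-2, sqt-3, rol-6, rol-8, bli-1 and bli-2). The rule used names only, and it gave 173 of the 19973 nuclear protein-coding genes in the Ensembl WBcel235 annotation, 156 of them col genes. Region lists from ChIP-seq, the sequencing of immunoprecipitated chromatin, were available for the nuclear hormone receptor NHR-28. All worms were of strain OP317, which carries unc-119(ed3) III and the insertion wgIs317, the source of NHR-28 fused to enhanced green fluorescent protein (eGFP), and were whole L3 larvae of mixed sex and unknown age. They formed 1 group of 2 biological replicates, with no second condition and no control list analysed here, so no difference between conditions could be tested. The promoter that drives the fusion is not given in the labels, and in whole animals the signal is summed over all tissues.

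The cuticle is the collagen-rich outer coat of the worm, secreted by the hypodermis and built anew at each moult. Cuticle collagens are short secreted proteins whose chains wind into a helix through repeats of glycine and any 2 further residues (Gly-X-Y), and different collagens are made at different times within a moulting cycle. Nuclear hormone receptors are transcription factors that bind DNA, many of them at short sequences called half-sites. The annotated coding sequences fitted collagens, though Gly-X-Y runs do not tell cuticle collagens from other collagens. Of the 173 genes, 172 encoded an unbroken run of at least 10 Gly-X-Y repeats, and the median longest run was 21 repeats. The exception was col-17, whose annotated reading frame held no run beyond 1 repeat. Another reading frame of the same col-17 exons held a run of 21 repeats, so the annotated frame may be at fault. The gene col-99 is a member by name only, being known as a transmembrane collagen, and it too encoded a run, of 33 repeats. The genes were short, with a median length of 1221 bp against 2027 bp for all genes, and lay on every nuclear chromosome, from 13 on chromosome III to 44 on chromosome IV.

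In the pooled list and replicate 2, though less clearly in replicate 1, strong regions at the collagen genes lay mainly just past their 3′ ends. Among the strongest of them in DNA annotated as between genes were those beyond dpy-13, sqt-1, sqt-3 and rol-6, and that beyond col-166 on chromosome X. The 151 bp around the centre of each region are shown because they are the DNA under the signal these results turn on. They are written 5′ to 3′ on the strand of the collagen gene, from the RefSeq sequence of WBcel235, the same assembly as ce11. Capitals mark a match, on either strand, to AGGTCA or AGTTCA (nuclear receptor half-sites), to GAGACGC, to GAGAGA or to TATAAA. The stretches are those past dpy-13 (chrIV:4237155-4237305, plus strand), sqt-1 (chrII:11336410-11336560, minus strand), sqt-3 (chrV:12354658-12354808, plus strand), rol-6 (chrII:8734678-8734828, plus strand) and col-166 (chrX:6281099-6281249, plus strand).
dpy-13: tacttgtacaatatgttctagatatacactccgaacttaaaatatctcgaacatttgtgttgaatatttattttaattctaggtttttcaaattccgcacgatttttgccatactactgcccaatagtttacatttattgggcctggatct
sqt-1: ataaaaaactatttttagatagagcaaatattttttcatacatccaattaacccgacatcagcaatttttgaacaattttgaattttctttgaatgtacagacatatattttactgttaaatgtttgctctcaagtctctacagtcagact
sqt-3: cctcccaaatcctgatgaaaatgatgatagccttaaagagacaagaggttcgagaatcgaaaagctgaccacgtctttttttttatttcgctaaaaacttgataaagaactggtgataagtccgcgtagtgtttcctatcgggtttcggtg
rol-6: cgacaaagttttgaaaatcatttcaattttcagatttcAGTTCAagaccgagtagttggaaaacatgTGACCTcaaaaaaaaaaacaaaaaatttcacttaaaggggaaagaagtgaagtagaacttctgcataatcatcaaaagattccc
col-166: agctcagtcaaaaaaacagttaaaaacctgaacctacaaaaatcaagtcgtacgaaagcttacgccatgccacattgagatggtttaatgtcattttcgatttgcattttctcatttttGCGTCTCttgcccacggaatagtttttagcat

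None of the 5 motifs occurred in the stretches past dpy-13, sqt-1 and sqt-3, whereas the rol-6 stretch held both half-sites and the col-166 stretch held GAGACGC. The full dpy-13 region of 340 bp did hold TATAAA, outside the stretch shown. The stretches past dpy-7 and dpy-3, at pooled ranks 166 and 222, are not shown although they ranked above that of col-166 (386). Both held TATAAA. Guanine and cytosine made up 31.8% of the dpy-13 stretch, 27.2% of the sqt-1 stretch, 40.4% of the sqt-3 stretch, 31.8% of the rol-6 stretch and 37.1% of the col-166 stretch.

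Each list gives regions of 1 fixed width with a signal set by the authors, whose scale is not stated. Read depth is unknown, since the lists hold no counts, and the signals carry no error. The lists take in background regions on purpose. The pooled list, called on both replicates together, held 20876 regions of 340 bp, the nuclear replicate lists held 29984 and 30000 regions, and 162 pooled regions passed the authors' irreproducible discovery rate (IDR) and form their final set. A gene was called in a zone when the middle of a region among the 2000 strongest of a list fell there. The zones were the promoter (1000 bp before the transcription start site, TSS, taken as the annotated gene start), the gene body, and the 1000 bp past the gene end. At rank 2000 the pooled signal was 18.8 and its q value 0.511, so a called region is a strong one within its list and not necessarily a significant peak.

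Past the 3′ end, 21 of the 173 collagen genes (12.1%) were called in the pooled list, where 3.35% of all genes were. In the promoter, 3 collagen genes (1.73%) were called against 3.29% of all genes, and in the body 4 (2.31%) against 4.6%. Over all zones together, 25 collagen genes (14.5%) were called in the pooled list against 10.5% of all genes. The replicates differed in direction here. Replicate 2 called 22 (12.7% against 10.6%), and replicate 1 called 15 (8.67% against 10.5%), below the share of all genes. Of the single zones, it was in the 3′ zone that the collagen share lay above the share of all genes. The 3′ share depended on the replicate. Replicate 2 called 18 collagen genes past the 3′ end (10.4% against 3.16% of all genes), and replicate 1 called 8 (4.62% against 2.92%). In the promoter each replicate called 3 (against 3.06% of all genes in replicate 1 and 3.14% in replicate 2), and in the body replicate 1 called 5 (2.89% against 5.17%) and replicate 2 called 7 (4.05% against 5.03%). Both replicates called 6 of the same genes past the 3′ end (3.47% against 0.636% of all genes), namely dpy-5, dpy-7, dpy-8, dpy-13, sqt-1 and sqt-3. In the body both called sqt-2 and dpy-4 (1.16% against 1.04%), and in the promoter both called col-63 alone (0.578% against 0.811%). These counts describe the lists, and no test was made of the difference between collagen genes and other genes.

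**Figure D1:**
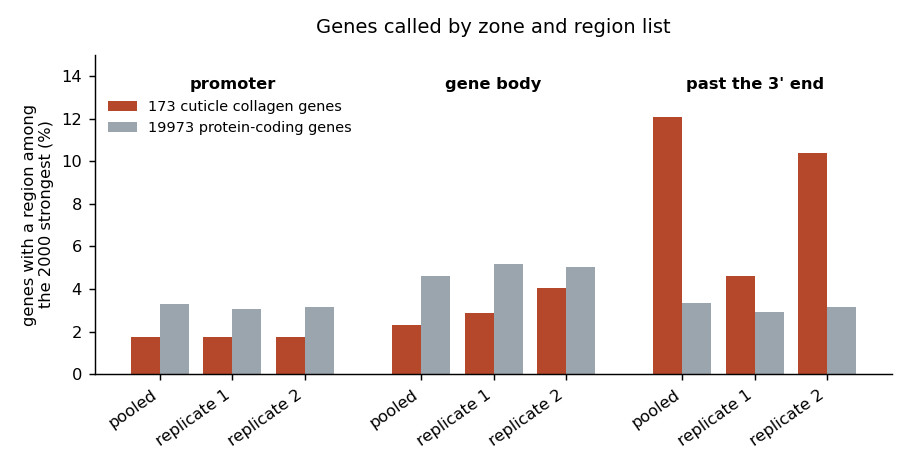
Bars give the percentage of genes with a region among the 2000 strongest of a list whose middle lay in the promoter, the gene body or the 1000 bp past the 3′ end, for the 173 cuticle collagen genes and for all 19973 protein-coding genes (bars are counts over genes and have no error). The collagen bar stands above the grey bar past the 3′ end in all 3 lists, from 4.62% in replicate 1 to 12.1% in the pooled list, and below it in the promoter and body.

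Shares among genes of like length, and the neighbours of the called genes, were also counted. Among the 7127 genes whose length lay between 982 and 2176 bp, the lengths of most collagen genes (10th to 90th percentile), 2.95% were called past the 3′ end, 2.92% in the promoter and 2.29% in the body, so the body share of the collagen genes was close to that of genes of their size. Of the 21 regions past the 3′ ends, 2 also lay in the promoter zone of another protein-coding gene and 7 in the body of one. The remaining 12 (57.1%) lay in neither, compared with 34.4% of the called genes overall. The middle of 14 of the regions was annotated as between genes, 4 in an intron and 1 each in a coding exon, a 5′ UTR and a 3′ UTR. The next protein-coding gene lay a median of 925 bp past the end of the 21 called collagen genes, against 380 bp for the 152 that were not called and 451 bp for all genes. That neighbour was on the other strand for 12 of the 21 (57.1%) and for 55.3% of those not called. Whether the neighbour's distance bears on the 3′ calls was not tested.

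The summits past the 3′ ends were close to the genes. The median distance was 281 bp past the gene end, with a range of 57 to 995 bp, and 17 of the 21 lay within 500 bp (81%, against 67.7% of the called genes overall). In the promoter zone the 3 summits lay between 986 and 79 bp before the TSS. Of the 58 collagen genes with any pooled region past the 3′ end, at any rank, the median distance was 321.5 bp.

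**Figure D2:**
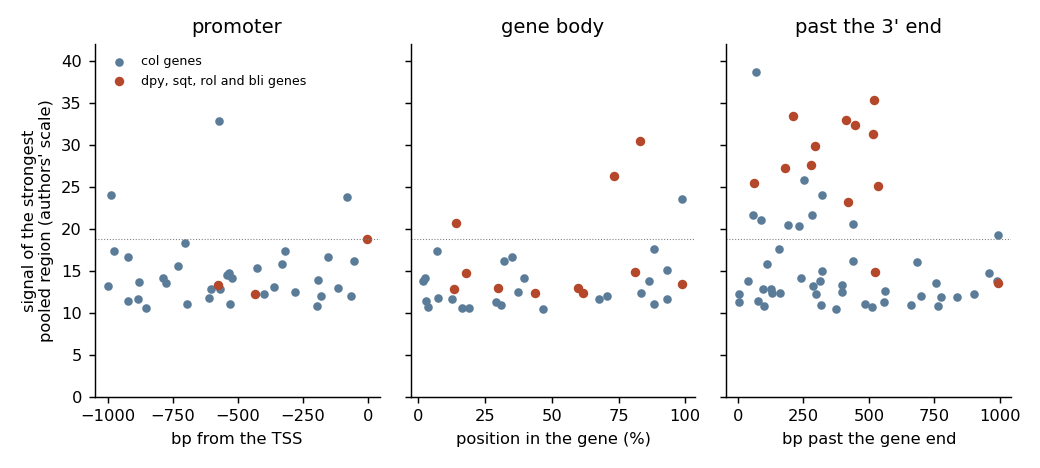
Each point is the strongest pooled region of 1 collagen gene in a zone, with the authors' signal on the vertical axis and its summit position on the horizontal axis in bp (promoter and past the 3′ end) or in percent of the gene's length (body). Red points are dpy, sqt, rol and bli genes, blue points are col genes, and the dotted line is the signal at rank 2000 (18.8). Points above the line are crowded between 57 and 535 bp past the 3′ end, where 11 of them are red.

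Past the 3′ end, a higher share of the genes named for body shape was called than of the col genes. Among the 17 body shape genes, 11 (64.7%) were called past the 3′ end in the pooled list, 11 in replicate 2 and 6 (35.3%) in replicate 1. Among the 156 col genes, 10 (6.41%) were called in the pooled list, 7 (4.49%) in replicate 2 and 2 (1.28%) in replicate 1, against the 3.35%, 3.16% and 2.92% of all genes in those lists. The col genes taken alone thus lay below the share of all genes in replicate 1 and above it in replicate 2. These counts are small, and no test separated the groups.

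Other body shape collagens, mutants of which are short and stout or roll as they crawl, included 4 of the 6 genes called past the 3′ end in both replicates. Past dpy-13, a collagen of body length, the pooled region spanned 4237060 to 4237399 of chromosome IV, and its signal of 35.3 placed it at rank 131. The overlapping region had a signal of 19.9 and rank 48 in replicate 1, and a signal of 20.2 and rank 297 in replicate 2. It was thus strong in both replicates, and its middle lay 520 bp past the gene end, between genes. Replicate 2 had a further and stronger region nearer to dpy-13, 132 bp past its end, with a signal of 24.3 and rank 128.

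Past sqt-3, whose product is cut by the DPY-31 protease during its maturation, the pooled region (chromosome V, 12354563 to 12354902) had a signal of 32.9 and rank 160. It had a signal of 13.9 and rank 225 in replicate 1, and 21.4 and rank 226 in replicate 2. Of the regions past 3′ ends that both replicates ranked among their 2000 strongest, this was the one with the closest ranks. Past sqt-1, mutants of which roll, the pooled region (chromosome II, 11336315 to 11336654) had a signal of 33.4 and rank 153. Its signal was 11.1 in replicate 1 at rank 763 and 29.3 in replicate 2 at rank 75. The regions past dpy-13, sqt-1 and sqt-3 are in the authors' final set.

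Past rol-6, a collagen known to act with sqt-1, the pooled region (chromosome II, 8734583 to 8734922) had a signal of 31.3 and rank 188. Replicate 2 ranked it 220 with a signal of 21.5, whereas replicate 1 ranked it 4243 with a signal of 7.85. Past dpy-5, a further collagen of body length, the pooled region had a signal of 27.2 and rank 313, with 10.2 and rank 1215 in replicate 1 and 17.8 and rank 567 in replicate 2. The regions past rol-8, dpy-4 and sqt-2 had pooled ranks of 407, 441 and 636. Replicate 2 ranked them 564, 389 and 319, and replicate 1 ranked them 5314, 15016 and 25446. These 3 were thus strong in replicate 2 alone. The remaining gene of the group was dpy-17, needed for the secretion of SQT-3, which had no pooled region in any zone.

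The furrow collagens DPY-2, DPY-3, DPY-7, DPY-8, DPY-9 and DPY-10 form the circular furrows of the cuticle and are made early in each moulting cycle. Past the 3′ end, 3 of these 6 genes (50%, against 3.35% of all genes) were called in the pooled list, all on chromosome X. Replicate 1 called 2 of the 6 (33.3% against 2.92%) and replicate 2 called 3 (50% against 3.16%). Past dpy-7 the pooled region (7535851 to 7536190) had a signal of 32.4 and rank 166, with 11.3 and rank 695 in replicate 1 and 18.4 and rank 459 in replicate 2. Past dpy-8 (5148355 to 5148694) the signal was 27.6 and the rank 300, with 13.7 and rank 240 in replicate 1 and 14.8 and rank 1672 in replicate 2. The middle of the dpy-8 region lay in the 5′ UTR of a neighbour, C31H2.14. Past dpy-3 (2144140 to 2144479) the signal was 29.9 and the rank 222. Replicate 2 had it at 27.0 and rank 96, and replicate 1 had no overlapping region. The 3 furrow genes on autosomes were not called in any zone of the pooled list. Their best pooled ranks were 6184 for dpy-9, 11028 for dpy-10 and 12984 for dpy-2, all in the gene body.

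The strut collagens BLI-1 and BLI-2 belong to the adult cuticle, where they hold its layers apart, and loss of either gives blisters. Neither gene was called in these L3 larvae, but most genes were not, since 10.5% of all genes were called in any zone of the pooled list. So few genes would often have no call, and whether its absence relates to stage was not tested, as no other stage was analysed. Past bli-1 the pooled region ranked 6381, and bli-2 had no pooled region.

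Among the col genes, col-90 on chromosome III had the strongest region past a 3′ end (7949965 to 7950304), with a pooled signal of 38.7 and rank 97. It is in the authors' final set, but the replicates ranked it far apart, at 39 with a signal of 38.8 in replicate 2 and at 3102 with a signal of 8.43 in replicate 1. Its middle lay 67 bp past the end of col-90, in the 3′ UTR of the neighbour let-754, which overlaps this DNA. The next col regions were those past col-166 (chromosome X, pooled signal 25.8, rank 386), col-73 (chromosome II, 24.0, rank 549), col-41 (chromosome X, 21.7, rank 922) and col-3 (chromosome IV, 21.6, rank 939). Replicate 2 ranked them 334, 90, 595 and 373, and replicate 1 ranked them 11114, 2031, 23161 and 9866. The replicates thus differed at each of these 4 col genes. The other called col genes were col-181, col-111, col-167, col-68 and col-149, with pooled ranks from 1065 to 1704. Replicate 2 ranked those past col-181, col-111 and col-149 at 318, 1157 and 869, and replicate 1 had no overlapping region at any of these 3 genes. At col-149 the middle of the replicate 2 region lay outside the 1000 bp zone, so replicate 2 did not call col-149 there. Past col-167 both replicates fell outside their 2000 strongest, at 3309 in replicate 1 and 2156 in replicate 2. Past col-68, in the promoter zone of txt-1, replicate 1 ranked the region 1342 and replicate 2 ranked it 4062, so col-68 was the 1 col gene of the pooled calls that replicate 1 called. Replicate 1 also called col-12, which the pooled list did not. The summits past col-111 and col-149 lay in introns of psr-1 and B0024.15, and that past col-41 in a coding exon of ucr-2.2. The region past col-181 also covered a tRNA gene, and that past rol-8 covered the noncoding RNA gene ZK1290.20.

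**Figure D3:**
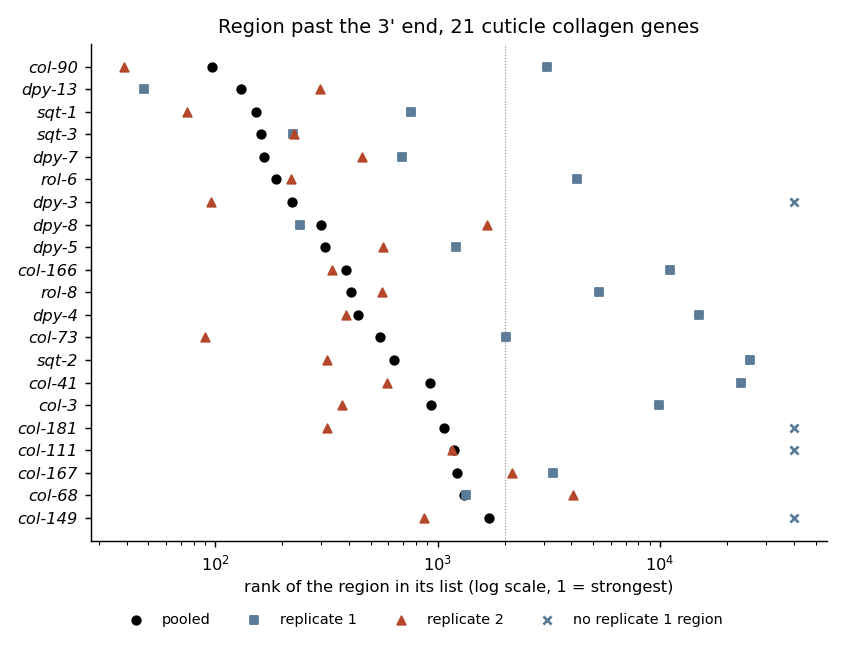
Ranks (log scale, 1 is the strongest region) of the region past the 3′ end of the 21 called collagen genes in the pooled list and of the overlapping regions in each replicate; crosses mark genes with no overlapping replicate 1 region and the dotted line is rank 2000. Replicate 2 ranks lie left of the line for 19 of the 21 genes and replicate 1 ranks for 7, among them dpy-13 at 48 and sqt-3 at 225. The 19 include col-149, which replicate 2 did not call because the middle of its region lay outside the zone.

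The called regions past the 3′ ends ranked higher in replicate 2 than in replicate 1 at most genes. All 21 pooled regions overlapped a replicate 2 region and 17 overlapped a replicate 1 region. The median rank was 373 in replicate 2, from 39 to 4062, and 3102 in replicate 1, from 48 to 25446. Replicate 2 ranked 13 of the 17 shared regions higher than replicate 1 did, and dpy-13, sqt-3, dpy-8 and col-68 were the ones that replicate 1 ranked higher. Across the 30 collagen genes whose strongest pooled region past the 3′ end overlapped a region in both replicates, at any rank, Spearman's rho between the replicate ranks was 0.494. It is a description across genes that share their 2 libraries. By the authors' q values, 9 of the 21 pooled regions were under 0.05, from col-90 to dpy-5 in rank order, and the other 12 ran from 0.0817 to 0.475.

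The share of genes called depended on how deep the list was read. Among the 500 strongest pooled regions, 6.94% of the collagen genes had one past the 3′ end against 1.02% of all genes, and among the 1000 strongest 9.25% did against 1.86%. Between the 2000 and the 5000 strongest, the collagen share went from 12.1% to 14.5% and that of all genes from 3.35% to 7.14%. With no limit on rank, 58 collagen genes (33.5%) had a region past the 3′ end against 23.3% of all genes, 39 (22.5%) in the promoter against 22.9%, and 36 (20.8%) in the body against 38.6%.

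**Figure D4:**
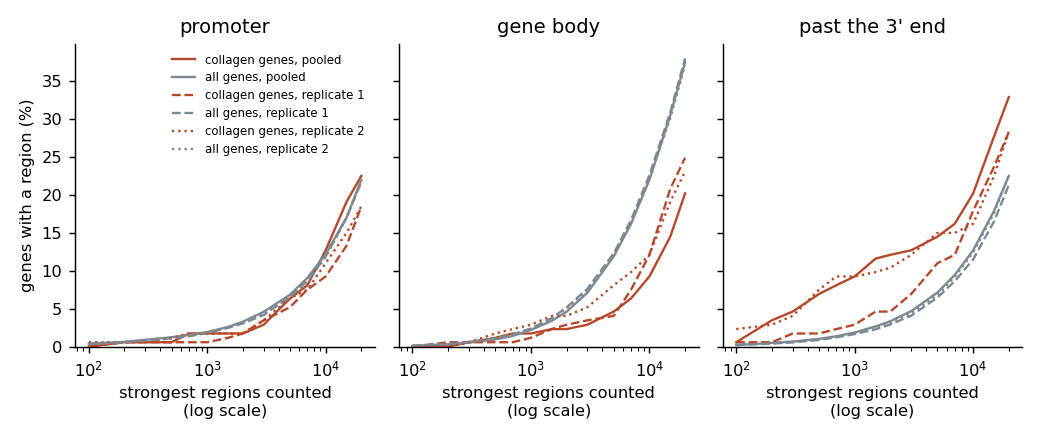
The percentage of genes with a region in each zone against the number of strongest regions counted (log scale), for collagen genes (red) and all protein-coding genes (grey) in the pooled list (solid), replicate 1 (dashed) and replicate 2 (dotted). Past the 3′ end the red pooled line is at 6.94% at 500 regions, where the grey one is at 1.02%, while in the promoter it is at 0.578% at 500 regions against 1.23% and at 6.36% at 5000 regions against 6.85%.

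Promoter regions of the collagen genes were few. The strongest lay 570 bp before col-63 on chromosome I (8245363 to 8245702) and is in the authors' final set, with a pooled signal of 32.8 and rank 162. Replicate 1 had it at 16.0 and rank 115, and replicate 2 at 18.7 and rank 421, and its middle also lay in the 3′ UTR of the homeobox gene ceh-8. The region before col-20 (rank 549) is the same one as that past col-73, since these genes are neighbours on the same strand. It lay 986 bp before col-20 and 321 bp past col-73, and the 2 genes cannot be told apart there. Before col-76 the summit was 79 bp from the TSS, with a pooled signal of 23.8 at rank 569, a replicate 2 rank of 444 and a replicate 1 rank of 5606. The middle of the replicate 2 region lay 6 bp inside the gene, so replicate 2 called col-76 in the body. Neither replicate called it in the promoter. Just outside the 2000 strongest was a region 4 bp before the TSS of rol-6 (chromosome II, 8732876 to 8733215, signal 18.8, rank 2006), with ranks of 973 in replicate 1 and 691 in replicate 2. In replicate 2 it was called in the rol-6 promoter, and in replicate 1 rol-6 was called in the body. The other promoter regions among the 10 strongest were those of col-84, col-50, col-51, col-185, col-103 and col-17, with pooled ranks from 2355 to 4294, col-50 and col-51 sharing a single region between them.

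In gene bodies, sqt-2 had the strongest region (chromosome II, 24095 to 24434), with a pooled signal of 30.4 and rank 213. Both replicates ranked it alike, at 228 with a signal of 13.8 in replicate 1 and at 248 with 20.9 in replicate 2. Its middle lay in an intron 193 bp before the end of sqt-2, inside the promoter zone of the neighbour enee-1. In dpy-4, which lies within the gene atln-2, the region (rank 357, signal 26.3) had replicate ranks of 1720 and 569. That of col-17 (rank 600, signal 23.5) lay in its 3′ UTR, 11 bp before the gene end, and that of sqt-1 (rank 1169, signal 20.7) in a coding exon 160 bp past the TSS, with no overlapping region in replicate 1. Of these 4 body regions, those of sqt-2, dpy-4 and col-17 lay toward the 3′ end of their gene. The remaining body regions among the 10 strongest belonged to col-113, col-99, col-54, col-104, col-48 and dpy-9, with pooled ranks from 2836 to 6184.

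In the authors' final set of 162 peaks, 4 collagen genes had a summit past the 3′ end (2.31% against 0.406% of all genes), 1 in the promoter (0.578% against 0.531%) and 0 in the body (against 0.23%), together 5 genes (2.89% against 1.14%). The first 4 were col-90, dpy-13, sqt-1 and sqt-3, and the promoter was that of col-63. The strongest regions past a 3′ end outside the final set were those of dpy-7 at rank 166 and rol-6 at rank 188. For comparison, 27 of the 78 ribosomal protein genes (34.6%) were called in the promoter in the pooled list and 2 (2.56%) past the 3′ end, the reverse order of zones. Whether these shares differ from those of the collagen genes was not tested.

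The collagen genes called past the 3′ end included 7 on chromosome X (33.3%), namely dpy-3, dpy-7, dpy-8, col-41, col-166, col-167 and col-181, while 30 of all 173 collagen genes lay on X. Among all genes called past the 3′ end 17.6% were on X. The group had a median length of 1190 bp, against 1227 bp for the collagen genes not called. Of the 173 genes, 45 had a window that overlapped the window of another collagen gene, and without them 17 of 128 (13.3%) were called past the 3′ end.

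By sequence, the 21 called regions past the 3′ ends had a median guanine and cytosine content of 32.6%, from 22.6% to 45.6%, against 34.1% for the called 3′ regions of all genes. AGGTCA occurred on either strand in 5 of the 21 (23.8%), against 9.56% of the 617 called 3′ regions of all genes and 8.4% of the 2000 strongest regions. These 5 belonged to dpy-7, rol-6, col-166, col-41 and col-3. AGTTCA occurred in 4 (19%, against 21.4% of the 617), GAGACGC in 2 (9.52% against 5.67%), those of col-90 and col-166, GAGAGA in 3 (14.3% against 20.7%) and TATAAA in 8 (38.1% against 37.4%). Of the 21 regions, 7 held none of the motifs, among them those past sqt-1, sqt-3, dpy-8 and dpy-5. The counts are small, and a match is not a binding site. In the 300 bp before the gene start, the collagen promoters held TATAAA in 64.7% of 173 genes, against 39.6% of all promoters, and GAGAGA in 31.2% against 21.6%. AGGTCA stood in 15% against 8.48%, AGTTCA in 21.4% against 20.5% and GAGACGC in 8.09% against 4.46%.

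Other genes of cuticle building were looked up by name, 36 of the 37 listed being in the annotation. Past the 3′ end 6 of the 36 (16.7%) were called in the pooled list against 3.35% of all genes, in the body 5 (13.9%) against 4.6%, and in the promoter 1 (2.78%) against 3.29%. In replicate 1 the 3′ count was 4 (11.1% against 2.92% of all genes) and in replicate 2 it was 2 (5.56% against 3.16%). The body count was 6 in replicate 1 (16.7% against 5.17%) and 2 in replicate 2 (5.56% against 5.03%), and the promoter count was 1 (2.78% against 3.06%) and 2 (5.56% against 3.14%). These genes were not set beside genes of like length. Whether length bears on their body shares was not tested. Among enzymes of hydroxylation and folding, pdi-2, which encodes a protein disulfide isomerase that is a subunit of the collagen prolyl hydroxylase, had a region 307 bp past its end on chromosome X (4526673 to 4527012). Its pooled signal was 31.8 at rank 177, with 16.6 and rank 91 in replicate 1 and 22.3 and rank 183 in replicate 2, so both replicates ranked it high. It was the 1 gene of the 5 in its list called in the pooled list.

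Among the proteases, dpy-31, the astacin-type protease that acts on SQT-3, was called past its 3′ end at rank 950, in DNA that is also the promoter zone of rpl-6. Replicate 1 ranked that region 996 and replicate 2 ranked it 4303. Of the other cuticle collagen names, lon-3 was called past its 3′ end at rank 1252, in the body of ogdh-2 and the promoter zone of ZK836.3. Replicate 1 ranked that region 634 and replicate 2 ranked it 4598. The cuticlin gene cut-2, a non-collagen cuticle component, was called past its 3′ end with a signal of 33.1 at rank 156. Replicate 2 ranked that region 91 and replicate 1 ranked it 16456, and its middle lay in the body of F53F1.6. The other cuticlin called was cut-6, in the body at rank 1335, with ranks of 14659 in replicate 1 and 3297 in replicate 2. Among the crosslinking genes, tsp-15, which encodes a tetraspanin of the cuticle oxidase complex, was called in the body at rank 1366. Replicates 1 and 2 ranked that region 3594 and 4733. Among the collagens outside the cuticle, mec-5, a collagen of the touch receptor matrix, was called in the body at rank 1270. Its replicate ranks were 1390 and 6221. Among 8 regulators of moulting and the hypodermis, myrf-1, which encodes a transcription factor needed for moulting, was called in the promoter in the pooled and both replicate lists, at rank 282 in the pooled list with ranks of 792 and 381 in the replicates. The nuclear receptor gene nhr-23, a regulator of moulting, was called in its body at rank 931 (replicate ranks 3310 and 2568). Past its 3′ end lin-42 was called at rank 1069 (replicate ranks 11965 and 523). In its body lin-42 was called at rank 1588, with rank 85 in replicate 1 and no overlapping region in replicate 2. Past its 3′ end lin-29 was called at rank 1739 (replicate ranks 6935 and 5111), in the body of hmg-12.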

How the data were processed

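Per the deposited file list, the authors called regions in each replicate and in the pool of both, with a control, and kept a final set by IDR. Which aligner and caller they used is not given in the sources used here. The deposited ce11 lists are in the narrowPeak layout. Their signal is the authors' own value per region and was ranked within 1 list only. The authors' −log10 q column was converted to q. The 16 mitochondrial regions of replicate 1 and the ce10 lists were not used. Depth is unknown, so no interval is given. Genes came from Ensembl release 115 for WBcel235 and sequence from RefSeq of the same assembly. Python 3.11.15 with pandas 2.3.3 placed each region by its middle, and the placement was tested on simulated data. Coordinates count from base 1.

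The genes and lists were chosen with earlier results of these data known. No test was run, and counts stand beside the same share over all protein-coding genes. Named were collagen genes in the authors' final set, the 10 with the strongest pooled region per zone, the 17 body shape genes, and up to 4 called genes per pathway list. The called col genes of lower rank past the 3′ end, and the genes that carry a motif, were named after their values were seen. Annotated gene starts can be trans-splice sites, so true starts may lie further upstream. Alternatives changed the rank limit, flanks, placement, list and set of genes. The replicates are separate biosamples per the labels.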

Additional observations from a re-analysis of the deposited data

How the results depend on the processing

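Past the 3′ end, the count of 21 collagen genes lay within 1.5 times with placement by overlap, flanks of 500 bp, the 1000 or 5000 strongest regions, and collagen genes with overlapping windows left out. It was 58 with no limit on rank and 4 in the authors' final set. It was 6 (3.47% against 0.601% of all genes) where the pooled region also had to overlap the 2000 strongest of each replicate. It ran from 8 (without replicate 2) to 18 (without replicate 1). The promoter count of 3 was 6 by overlap of at least 1 bp (3.47% against 4.04% of all genes) and 1 with flanks of 500 bp (against 2.11%). It was 11 among the 5000 strongest regions (6.36% against 6.85%), 39 with no limit on rank and 1 in the final set. With both replicates required it was 1 (0.578% against 0.776%), and with a window to 500 bp downstream 5 (2.89% against 4.19%). It was 3 without either replicate. The body count of 4 was 9 by overlap (5.2% against 5.94%), 8 among the 5000 strongest (4.62% against 11.9%), 36 with no limit and 0 in the final set. With both replicates required it was 2 (1.16% against 0.451%), which lay above the share of all genes. It ran from 5 to 7 when a replicate was left out. In rules chosen after the data were seen, leaving out summits in the promoter or body of another gene gave 12 past the 3′ end (6.94% against 1.16%). Zones counted from the ends of the coding sequence gave 21 (12.1% against 3.42%). Beyond the looser or stricter limits themselves, the cause was not tested. No paired analysis was possible because the series has 1 group. High q values in the candidate lists and unknown depth limit what ranks beyond the final set can show.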
